A study of Mus musculus with 6 samples.

Results

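Crystallins are the abundant soluble proteins of the eye lens, and 10 of their genes were examined for MafA binding in a pancreatic beta cell line: Cryaa, Cryab, Cryba1, Cryba2, Cryba4, Crybb1, Crybb2, Crybb3, Crygs and Crygn. The genes were given by name as lens crystallins, by a rule that uses no measured value, though with earlier results of these data known. They are 10 of 21900 protein-coding genes in the gene table. Every peak in a gene, or within 10 kb of either end of it, was assigned to that gene. The cells were MIN6, a mouse insulinoma line that secretes insulin and grew from a tumour driven by a viral T antigen under an insulin promoter. All libraries came from this 1 line, 500000 cells each per the series' design text, with no further treatment stated. CUT&RUN, in which an antibody directs a nuclease to its target in permeabilised cells and the released DNA is sequenced, was done in 2 replicates each with an antibody to endogenous MafA, with one to H3K4me3, a histone mark of active gene starts (positive control), and with IgG (negative control). No IgG file was analysed here. The labels do not say that replicates were separate cultures, so their spread may be technical.

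MAF proteins are basic leucine zipper factors that bind DNA as dimers at MAF recognition elements, built from half-sites around TGCTGA, often with the TGACTCA core that AP-1 factors also bind. In the lens, c-Maf drives the crystallin genes of the fibre cells. In the pancreas, MafA is a factor of mature beta cells and activates the insulin genes. The comparison asks whether MafA lies at lens targets of the MAF family in a cell that is not a lens cell.

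MafA regions, defined as overlapping peaks found in both replicates, lay at 7 of the 10 genes: Cryaa, Cryba2, Cryba4, Crybb1, Crybb2, Crybb3 and Crygs. Such a region lay at 44.0% of all protein-coding genes. The strongest lay at the Cryba4 and Crybb1 pair, over the start of Crybb3 and at the start of Cryba2, with fold enrichment of 21.9 ± 1.96, 21.6 ± 0.683 and 17.7 ± 1.01 (mean ± SD, n = 2). Fold enrichment is the authors' value for a peak, the signal at its summit over a modelled background. Cryab and Crygn had a MafA peak in replicate 2 alone, and Cryba1 had none in either replicate.

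Promoter sequences of 5 genes show how the peaks and the MAF half-sites fell. They are the 250 bases before the annotated start, 5′ to 3′ on the gene's strand, from RefSeq, build GRCm38.p6. Capitals mark TGCTGA or its reverse complement TCAGCA, and TGACTCA or its reverse complement TGAGTCA. The first 3 promoters lay under a MafA peak, in both replicates for Cryba2 (chr1:74893144-74893393, minus strand) and Crybb3 (chr5:113081585-113081834, minus strand) and in replicate 2 for Crygn (chr5:24757849-24758098, minus strand). The Cryba2 and Crybb3 summits lay outside the printed bases. The sequence under them was not read, so they could not lie on capitals. Relative to the start, Cryba2 summits were at -341 and -338 and its capitals began at -149 and -59. Crybb3 summits were at 113 and 151, inside the gene, and its capitals began at -67. The Crygn summit, inside the printed bases, was at -44 and not on the capitals, which began at -232. The last pair, Cryaa (chr17:31677681-31677930, plus strand) and Crybb1 (chr5:112255570-112255819, plus strand), hold the longer half-site TGCTGAC but lay under no MafA peak.
Cryba2: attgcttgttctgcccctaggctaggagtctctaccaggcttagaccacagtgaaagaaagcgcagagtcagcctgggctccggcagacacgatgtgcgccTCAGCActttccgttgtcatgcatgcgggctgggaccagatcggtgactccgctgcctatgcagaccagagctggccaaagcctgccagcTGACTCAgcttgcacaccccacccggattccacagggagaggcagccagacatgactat
Crybb3: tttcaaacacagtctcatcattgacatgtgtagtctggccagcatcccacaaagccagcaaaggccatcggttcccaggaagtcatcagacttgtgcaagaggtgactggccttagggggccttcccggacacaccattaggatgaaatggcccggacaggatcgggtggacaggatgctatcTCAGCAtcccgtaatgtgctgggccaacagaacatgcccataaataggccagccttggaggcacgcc
Crygn: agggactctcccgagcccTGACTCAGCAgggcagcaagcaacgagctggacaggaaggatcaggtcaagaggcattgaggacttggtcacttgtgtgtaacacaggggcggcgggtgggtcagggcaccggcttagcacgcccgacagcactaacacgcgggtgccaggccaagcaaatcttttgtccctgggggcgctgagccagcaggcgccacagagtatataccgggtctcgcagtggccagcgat
Cryaa: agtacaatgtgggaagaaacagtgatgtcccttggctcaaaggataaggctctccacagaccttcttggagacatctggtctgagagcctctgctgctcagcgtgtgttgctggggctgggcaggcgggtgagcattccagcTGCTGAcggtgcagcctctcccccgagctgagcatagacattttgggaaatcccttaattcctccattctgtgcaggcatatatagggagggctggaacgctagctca
Crybb1: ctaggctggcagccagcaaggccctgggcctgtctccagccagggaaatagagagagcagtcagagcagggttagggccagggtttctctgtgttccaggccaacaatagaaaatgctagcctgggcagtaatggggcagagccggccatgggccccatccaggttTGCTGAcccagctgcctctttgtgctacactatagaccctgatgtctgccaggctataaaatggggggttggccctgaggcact

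Promoter windows of 300 bases, from 250 before to 50 after the start, were given for 9 of the 10 genes, all but Cryab. On either strand, TGCTGAC occurred in 4 of the 9 windows (Cryaa, Cryba1, Cryba4 and Crybb1) and in 4.30% of 21263 windows of protein-coding genes. The shorter TGCTGA, which includes TGCTGAC, occurred in 8 of 9 and in 18.1% of all windows, with Crybb2 the exception. The core TGACTCA, searched after the sequences had been seen, occurred in 4 of 9 (Cryaa, Cryba2, Crygs and Crygn) and in 4.66% of all. In Crygn it overlaps TCAGCA, and in Cryaa it lies past the start, outside the printed bases. Paired ends of a full element, TGCNNNNNNNGCA or TGCNNNNNNNNGCA, each occurred in 2 of 9, Cryaa and Crybb3 for the first and Crybb1 and Crygn for the second. They occurred in 7.70% and 7.07% of all windows. The genes were listed as lens targets of MAF proteins, so half-sites at their promoters are no independent finding. A match is letters in a window, not a measured site.

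None of the 4 windows with TGCTGAC lay under a MafA peak of either replicate. MafA regions overlapped 2 of the 9 windows, Cryba2 and Crybb3, beside 16.5% of all windows, a share near the background. Peaks of replicate 1 alone gave the same 2 of 9, beside 15.9%, and peaks of replicate 2 gave 3 of 9, with Crygn, beside 26.4%. At these shares few of 4 windows would lie under a peak, so nothing is read from the absence at the windows with TGCTGAC. H3K4me3 regions overlapped 1 of 9 windows, that of Cryba2, beside 55.4%. Among all windows under an H3K4me3 region, 28.9% were overlapped by a MafA region. Among windows without one it was 1.15%, or 109 of 9487, beside 1 of the 8 such crystallin windows, that of Crybb3.

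**Figure D1:**
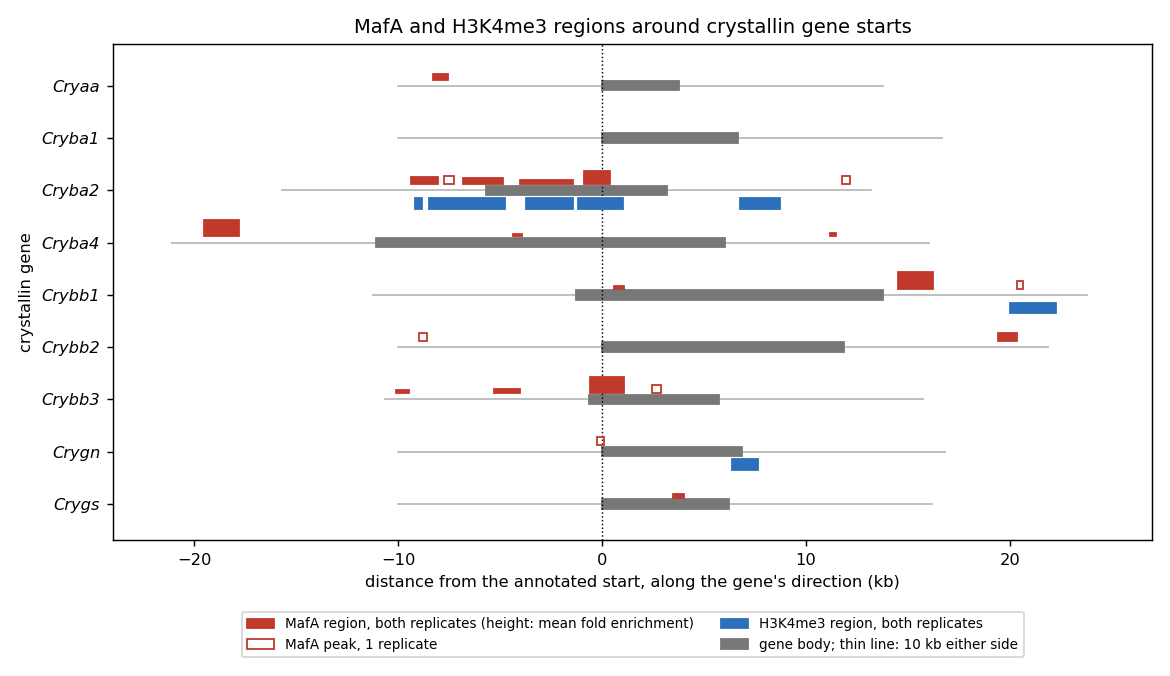
MafA and H3K4me3 regions at 9 crystallin genes, by distance in kb from the annotated start along the gene's direction (Cryab, with no annotated start in the promoter table, is left out). Red boxes are MafA regions of both replicates, with height in proportion to mean fold enrichment, open boxes are MafA peaks of 1 replicate, and blue boxes are H3K4me3 regions. The tall boxes at the starts of Cryba2 and Crybb3 and past the end of Crybb1 are the 3 strongest regions. The tall box in the Cryba4 row, upstream of the Cryba4 start, is the Crybb1 region drawn again, since it counts for both genes.

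The alpha crystallins, Cryaa and Cryab, encode chaperones of the small heat shock family, of which Cryab is also made in many tissues outside the lens. At Cryaa (chromosome 17, 31677931 to 31681730) a MafA peak lay upstream, with fold enrichment of 8.05 in replicate 1 and 7.53 in replicate 2. Its summits were at -7663 and -7829 bases from the start, 166 bases apart. The region, from 31669619 to 31670384, lay outside every annotated gene, and no other gene lay within 10 kb of it. A distal control region upstream of Cryaa is known from lens; whether this region covers it was not tested. The region rested on few fragments, 24 and 39 at the summit over a background of 2.11 and 3.0. It ranked at percentile 73.7 of all 25894 MafA regions by fold enrichment, but at 28.8 by the number of fragments. No H3K4me3 peak was listed at Cryaa in either library.

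Cryab (chromosome 9, 50745951 to 50756636) had H3K4me3 without a MafA region. The H3K4me3 region over one end of the gene record had fold enrichment of 16.8 and 18.4 in replicates 1 and 2. Its summits lay 171 and 169 bases from the annotated start of 2310030G06Rik, whose record overlaps Cryab, so the mark cannot be assigned to Cryab itself. A weaker H3K4me3 region with 5.24 and 5.82 lay 6415 bases away. This region was inside the Dixdc1 record, 66 bases from the end closer to the annotated starts of Dixdc1. The single MafA peak, in replicate 2, overlapped it, with fold enrichment of 4.65 and 36 fragments. Hspb2, another small heat shock gene, lies within the Cryab record.

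The acidic beta crystallins are structural lens proteins, and Cryba2 is also transcribed in pancreatic endocrine cells. Cryba2 (chromosome 1, 74889934 to 74898842) was the one listed gene whose promoter window carried both marks. MafA peaks upstream of its start had fold enrichment of 17.0 in replicate 1 and 18.4 in replicate 2. The summits lay at -341 and -338 bases from the start, 3 bases apart, with 195 and 443 fragments. The region, from 74892743 to 74894041, ranked at percentile 96.6. H3K4me3 over the same place had fold enrichment of 8.56 and 9.06, with summits at -330 and -362 bases.

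Farther from the annotated start of Cryba2, 3 more MafA regions were found, 1 inside the gene record, 1 over its end and 1 outside it, and all 4 of its regions overlapped H3K4me3. The second had fold enrichment of 5.73 and 4.81, and its summits were 1137 bases apart, so the replicates placed it differently. The next had 7.21 and 9.31, and the last, at the end of Cfap65, 9.38 and 10.0. Mir375, the hairpin of the islet microRNA miR-375, lies between those 2 regions, at 74900658 to 74900721. These regions ended 685 bases before it and began 481 bases after it. An H3K4me3 region with fold enrichment of 21.0 and 19.2 covered the hairpin, and a weak MafA peak of replicate 2, with 2.62, did too. Weaker H3K4me3 regions had 4.46 and 4.90 inside the Cryba2 record and 3.24 and 3.14 at the end of Cfap65, and 1 further H3K4me3 peak of replicate 2, with 3.60, joined the region over Mir375. A MafA peak of replicate 2 alone, with 4.67, lay 8583 bases from Cryba2. Fev, a transcription factor gene past the other end of Cryba2, had an H3K4me3 region with 16.8 and 13.8, whose summits lay 38 bases from the start of Fev. The long noncoding RNA (lncRNA) gene Gm16582 lay within 10 kb of that region. The regions counted for Cryba2 thus share their window with several genes, and which gene each acts on was not tested.

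Cryba1 (chromosome 11, 77718614 to 77725293) had no MafA or H3K4me3 peak in any of the 4 lists. The nearest MafA region lay 17437 bases outside the gene, with fold enrichment of 4.59 and 8.77. Peaks below the lists' significance limit cannot be seen, so a weaker signal there was not detectable.

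Cryba4 and Crybb1 (chromosome 5, 112246492 to 112263625 and 112254563 to 112269585) are an acidic and a basic beta crystallin gene in head-to-head order, with starts 3302 bases apart. Both MafA regions of Crybb1 also count for Cryba4. The strongest, from 112270315 to 112272062, had fold enrichment of 23.3 in replicate 1 and 20.5 in replicate 2, with 208 and 411 fragments. It lay between Crybb1 and Tpst2, which encodes a protein sulfotransferase, 730 bases past the end of Crybb1 and 6690 bases from the Cryba4 record. Its summits lay 15091 and 15123 bases from the annotated start of Crybb1. From the annotated start of Cryba4 they lay at -18393 and -18425 bases. Its summits were 32 bases apart and it overlapped no H3K4me3 region. It ranked at percentile 98.3 by fold enrichment and 98.8 by fragments. The lncRNA gene Gm46941 also lay within 10 kb of it.

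Nearer to the starts of this pair the signal was weak. A shared region 969 and 1001 bases into Crybb1 had fold enrichment of 3.18 and 2.78, at percentile 4.16. Another region, at Cryba4 alone and past its end, had 4.35 and 4.03, with the lncRNA gene Gm52821 within 10 kb. The H3K4me3 region assigned to Crybb1, with 17.5 and 15.0, had its summits 272 and 246 bases from a start of Tpst2. A MafA peak of replicate 1 alone, with 4.14, lay there too. No H3K4me3 peak lay at the starts of Cryba4 or Crybb1.

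Crybb2 and Crybb3 encode basic beta crystallins and lie in tandem on chromosome 5, 113058258 to 113070117 and 113075839 to 113082236, with 5722 bases between them. At Crybb3, MafA peaks over the start had fold enrichment of 21.1 in replicate 1 and 22.1 in replicate 2, with 130 and 265 fragments. The summits lay 113 and 151 bases inside the gene, and the region, from 113080485 to 113082188, ranked at percentile 98.1. No H3K4me3 peak lay at Crybb3 in either library. Of its other regions, 1 touched the end of 2900026A02Rik, with 5.36 and 4.50, and the other lay inside that gene, with 3.89 and 3.24.

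At Crybb2 a region past the end of the gene, from 113049755 to 113050711, had fold enrichment of 11.5 in replicate 1 and 8.03 in replicate 2. It lay 7547 bases away, and apart from Crybb2 the entries within 10 kb of it were Gm22740, a small nuclear RNA gene, and Gm43247, a pseudogene. The region over the start of Crybb3 lay 10368 bases from Crybb2, just outside the window, while the farthest region inside a window lay 8815 bases from Crybb3. A MafA peak of replicate 2 alone, with 4.15, lay inside Crybb3 and also within 10 kb of Crybb2. No H3K4me3 peak was listed at Crybb2.

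The gamma crystallins are structural proteins of the lens fibres. Crygs (chromosome 16, 22805203 to 22811410) held a weak MafA region within the gene, with fold enrichment of 5.10 and 4.27 and 22 and 33 fragments. Its summits were 222 bases apart, it ranked at percentile 30.2, and it was lost when peaks had to share 50% of their lengths. Tbccd1 and the lncRNA gene Gm30416 lay within 10 kb of this region. Crygn (chromosome 5, 24751002 to 24757848) had a MafA peak over its start in replicate 2 alone, with 4.17 and 21 fragments, the fewest of any peak at these genes. Its summit lay at -44 bases from the start. H3K4me3 was found at the opposite end of Crygn, with 11.4 and 9.47 and summits 6763 and 6854 bases from the start. The lncRNA genes Gm33591 and Gm42231 lay within 10 kb of that region, and no other protein-coding gene did.

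**Figure D2:**
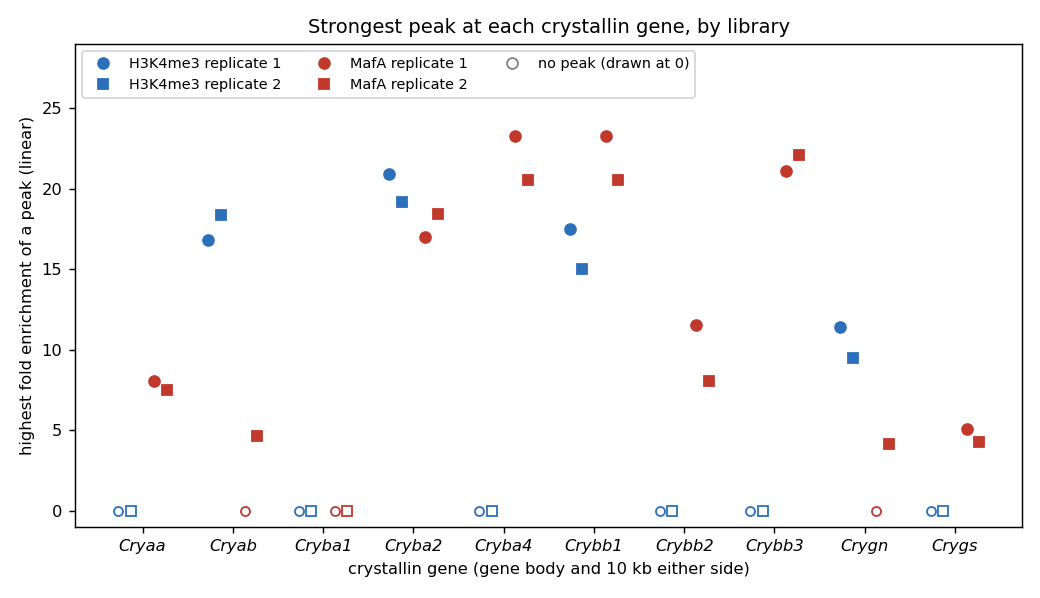
Highest linear fold enrichment of a peak at each crystallin gene in each of the 4 libraries (H3K4me3 blue, MafA red; circles replicate 1, squares replicate 2; open symbols at 0 where no peak was listed). MafA values reach 17.0 to 23.3 at Cryba2, Cryba4, Crybb1 and Crybb3, and H3K4me3 has no peak at 6 of the 10 genes.

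MafA and H3K4me3 were then compared across the listed genes. MafA peaks lay at 7 genes in replicate 1 and 9 in replicate 2, beside 48.3% and 58.5% of all protein-coding genes. H3K4me3 peaks lay at the same number, 4, in both replicates, beside 65.5% and 66.0%. The difference, MafA minus H3K4me3, was 4.0 genes, larger than the spread between replicates (8.0 ± 1.41 against 4.0 ± 0.0, mean ± SD, n = 2). The exact permutation test of the 4 libraries, two-sided, gave p = 0.333, the smallest that 2 against 2 can give, so it could not pass 0.05. The MafA lists were longer, with 33013 and 42747 peaks against 16020 and 16904. When each list was limited to its 16020 strongest peaks, the difference was 2.0 genes. With 50 kb on either side of the genes the difference was 0.5 genes (exact permutation p = 1.0). Only Cryba2, Cryab and Crygn had H3K4me3 within 1 kb of a gene end, beside 55.8% of all genes.

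The 7 of 10 genes with a MafA region can be read against narrower backgrounds, given as counts with no test. Among genes no longer than Cryba4, the longest listed, the share with a MafA region was 30.0%, against 7 of 10. Among genes without H3K4me3 at either end it was 22.3%, against 6 of 7, all but Cryba1. Among genes with the mark at an end it was 61.2%, against 1 of 3, Cryba2. The 6 of 7 are not separate loci, since Cryba4 and Crybb1 share regions and Crybb2 and Crybb3 are neighbours. Both a MafA and an H3K4me3 region lay at 2 of 10 genes, Cryba2 and Crybb1, beside 39.5%. Regions at or above percentile 90 of fold enrichment lay at 4 of the 10 genes and at 6.79% of all genes. These 4 genes hold 3 distinct regions, since Cryba4 and Crybb1 share one.

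**Figure D3:**
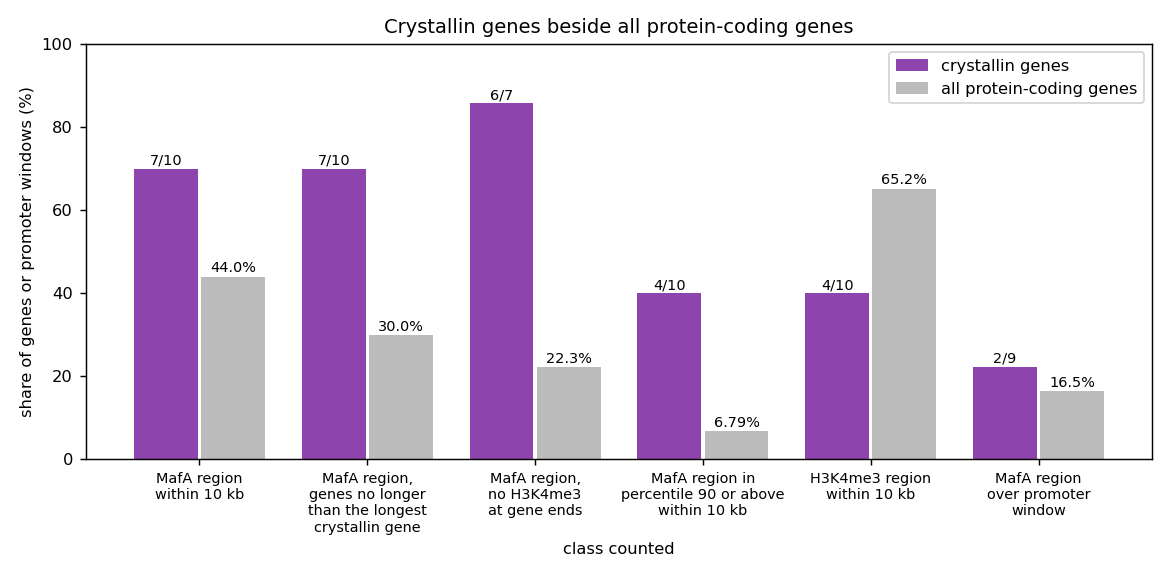
Share of crystallin genes (purple, with counts) and of all protein-coding genes (grey) in each class, in percent; the last class counts promoter windows. The share of the 10 listed genes is above the background for MafA regions (7 of 10 against 44.0%) and below it for H3K4me3 (4 of 10 against 65.2%). Of 13 other crystallins, counted below, 6 had a MafA region.

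In all, 13 distinct MafA regions lay at the 7 genes, with mean fold enrichment from 2.98 to 21.9 and a median of 7.79, beside 5.75 for all 25894 regions. They were uneven, with 3 at or above percentile 90 and 6 below percentile 50. Summits agreed within 100 bases between replicates at 10 of the 13, and the share among all MafA regions was not counted. The 4 at Cryba2 overlapped H3K4me3 and the other 9 did not, beside 23.5% of all MafA regions that did. In replicate 1 the summits of the 14 distinct MafA peaks at the genes held 22 to 208 fragments (median 50), and in replicate 2 the 18 peaks held 21 to 443 (median 58.5). Peaks found in a single replicate numbered 1 in replicate 1 and 5 in replicate 2, where their median fold enrichment was 4.17.

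**Figure D4:**
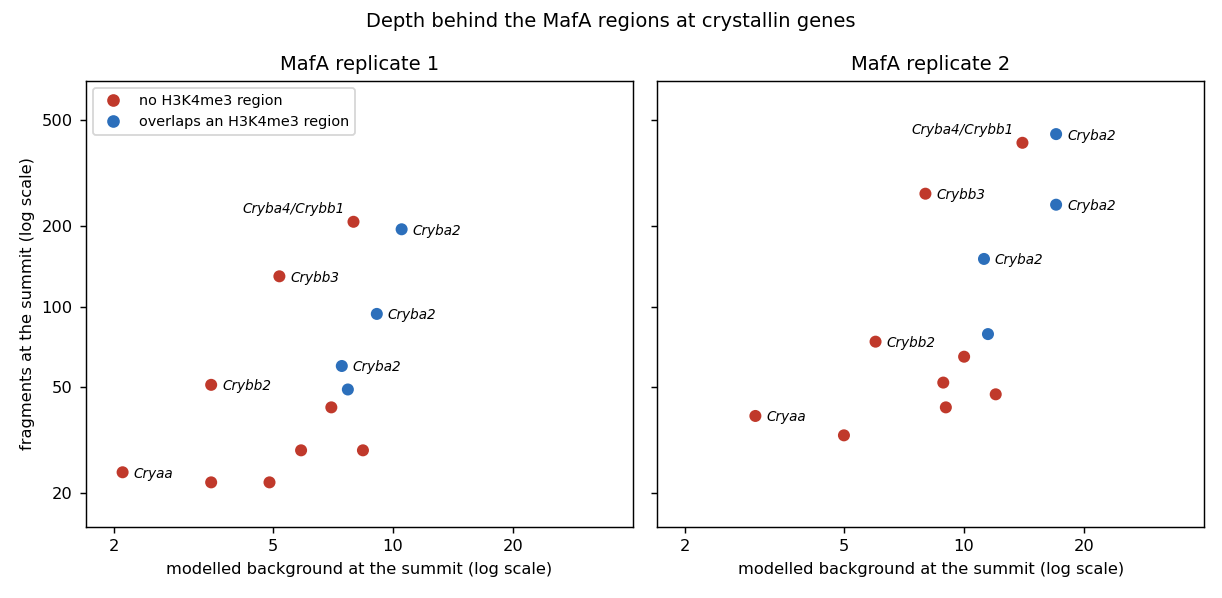
Fragments at the summit against modelled background, both on log scales, for the 13 distinct MafA regions at crystallin genes in each replicate (blue: overlapping an H3K4me3 region; named: regions above the median of all MafA regions). The regions at Cryba2, Cryba4 and Crybb1, and Crybb3 stand highest in fragments, from 130 to 208 in replicate 1 for the strongest of each, while that at Cryaa has the lowest background.

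The strongest crystallin regions were set beside the strongest MafA region within 10 kb of 4 beta cell genes in the same lists. At Pdx1, a beta cell homeodomain factor, the replicate values were 18.2 and 25.0, and all replicate values at the Crybb1 and Crybb3 regions lay between them. At Slc2a2, the glucose transporter of beta cells, with its region 7585 bases from the gene, they were 22.7 and 22.5, and at Ins2 14.9 and 20.8. Ins1, with its region 9939 bases from the gene, had 29.4 and 44.0, and no crystallin value reached these. The line carried H3K4me3 within 1 kb of an end at 5 of 6 beta cell markers, all but Ins1, beside 55.8% of all genes.

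Other lens genes, from lists chosen by function, were counted the same way. Of 13 other crystallins, 6 had a MafA region (Crybg1, Crybg2, Crybg3, Cryl1, Cryz and Cryzl1), beside the same 44.0% of all genes. These 6, and no others of the list, also had H3K4me3, and none of the clustered gamma crystallins from Cryga to Crygf, nor Crym, had either. The strongest were Crybg3 with 20.3 and 22.1 in replicates 1 and 2 and Cryl1 with 13.0 and 13.3. The Cryl1 region lay 8735 bases from the gene. Of 10 lens transcription factors, 6 had a MafA region, namely Pax6, Prox1, Hsf4, Maf, Six3 and Hsf2, and 8 had H3K4me3, beside 44.0% and 65.2% of all genes. The highest were Pax6, a regulator of both eye and islet development, with 6.62 and 8.71, and Hsf2 with 6.11 and 7.25. The Pax6 region lay 3095 bases from the gene.

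Among 7 genes of the fibre cell membrane and cytoskeleton, 3 had a MafA region, Lim2, Bfsp1 and Bfsp2, near the 44.0% of all genes. Bfsp1, which encodes the beaded filament protein filensin, had 8 MafA regions, the strongest with 22.7 and 22.9 inside the gene. At Lim2, a fibre membrane protein gene, with its region 6423 bases from the gene, the values were 8.65 and 10.9. Of 7 small heat shock genes, 4 had a MafA region, Hspb3, Hspb6, Hspb8 and Hspb9, led by Hspb9 with 11.7 and 12.6 and Hspb8 with 6.56 and 8.06, and 6 had H3K4me3, beside the same 44.0% and 65.2% of all genes. The Hspb9 region lay 4445 bases from the gene.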

How the data were processed

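The members and lists were chosen with earlier results of these data known. Peaks were called with MACS2 on GRCm38 (mm10), 1 list per library, per the submitters' processing notes; the MACS2 version, aligner, duplicate handling and control library are not given in the sources used here. Fold enrichment, as deposited, is a ratio on a linear scale, summit signal over modelled background, and the deposited −log10 p and −log10 q columns hold the significance at the summit, with a lowest −log10 q of 2.0. The deposited score was not used. Lists held 16020 and 16904 H3K4me3 and 33013 and 42747 MafA peaks, with read totals not stated.

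Fragments at each summit were recovered from the fold enrichment (pseudocount 1) and the Poisson p-value, as whole numbers times a scaling factor per library, within a relative tolerance of 1e-04. This solved 100% of peaks in each list. Of 5000 simulated peaks per factor, 100% were recovered at factors 1.0 and 0.42 and 99.98% at 0.75. Simulated fold enrichment stayed below that of the strongest MafA regions at Cryba2, Crybb1, Crybb3 and Ins1. Simulated background stayed below that of the H3K4me3 region at Tpst2, so recovery at these regions was not simulated. Median fragments per summit were 25 and 46 for MafA replicates 1 and 2, and 759 and 263 for H3K4me3.

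An overlap needed at least 1 bp. Overlapping peaks from replicates 1 and 2 were joined into a region, with the strongest peak of each giving its values. Percentiles rank the mean fold enrichment of regions. RefSeq annotation of GRCm38.p6 gave the gene ends, and its promoter table the starts and promoter sequences, which matched 9 of 10 genes. The table holds no exons, so exon and intron were not assigned. Named were the 10 genes with all their peaks, the genes within 10 kb of each region, the other lens genes with a region, with values for the 2 highest of each list, and 4 beta cell genes. Scripts used scipy 1.17.1, pandas 2.3.3, matplotlib 3.10.9 and numpy 2.4.6 under Python 3.11.15. Alternatives were other peak thresholds, overlaps, windows and motifs, a permutation with replicate number as a block, and omission of 1 library at a time. H3K4me3 at the lens marker genes is not reported here.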

Additional observations from a re-analysis of the deposited data

How the results depend on the processing

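The search for TGACTCA was chosen after seeing the data. The number of crystallin genes with a MafA region, 7, was 5 to 9 over 6 alternatives, and 7 to 9 without either replicate. The number with H3K4me3, 4, was 3 or 4 except with 50 kb either side, where it was 9, and it was 4 without either replicate. For the other thresholds, overlaps and windows, the shares of all protein-coding genes were not computed. Whether the counts under those settings differ from a background was therefore not tested. The difference between the targets, 4.0 genes, was 0.5 to 3.5 under 5 alternatives (2.0 with lists of equal length) and 3.0 to 5.0 without each library. With the replicate number as a block it was 4.0, for which exact permutation gave p = 0.5, and no label ties equal numbers to a shared culture or day. None of these p-values could pass 0.05. The 4 promoter windows with TGCTGAC became 8 with TGCTGA, 2 with each paired form and 4 with TGACTCA.

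A gene lost its region in 6 of 42 cases: Cryaa and Crybb2 in the gene body and within 5 kb, and Crygs when each list was cut to its 16020 strongest peaks or peaks had to share 50% of both lengths. Of 50 remaining fold enrichment values 4 moved beyond the replicate spread, to 2.98 at Cryba4 (gene body and 5 kb) and Crybb1 (gene body) and to 21.6 at Crybb2 (50 kb), since the window then held another strongest region. Leaving out 1 of 2 replicates cannot pass that spread. Of 14 percentiles by −log10 q or fragments 6 moved, most at Cryaa (50.5 and 28.8).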
